A study of Homo sapiens with 148 samples.

Results

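Heat shock chaperones are proteins that bind unfolded or newly made proteins and keep them from aggregating. The set described here has 10 genes of the 49085 gene names in the RNA-seq table. It comprises the HSP70 genes HSPA6, HSPA1A, HSPA1B and HSPA8, the HSP110 gene HSPH1, the J-domain co-chaperone DNAJB1, the HSP90 gene HSP90AA1, the small heat shock protein HSPB1, the mitochondrial chaperonin HSPD1 and the transcription factor HSF1. All 10 were found, each as a single entry, and all 10 reached 1 TPM in at least 1 stage, as did 28202 names in all. TPM, a measure of RNA abundance, divides reads by transcript length and scales each library to the same total, so levels of different genes can be set side by side. The genes were chosen by name with their levels in the 6 stages already known. Those levels are therefore given as a description, with no test.

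The RNA came from the wild-type human embryonic stem cell line H9 (hESCs), an established line that served as the single source of all stages, and from cells differentiated from it in vitro toward pancreatic islets. The stages were hESCs before differentiation, definitive endoderm (DE) at day 4, primitive gut tube-like cells (PGT) at day 7, pancreatic progenitors (PP) at day 14 and, at day 35, organoids with β-like cells, called SC-β organoids. A further stage carries the name PH in the labels; neither its day nor its meaning is given in the sources used here. Each stage has 2 RNA-seq samples in the labels, 12 in all among the 148 samples of the series. The deposited table holds 1 mean per stage, so no value below has an error, and a difference between neighbouring stages cannot be compared with a spread between replicates. No heat treatment is named for any stage. In bulk RNA, fewer cells of a type and less RNA per cell cannot be told apart.

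Human cells carry both constitutive chaperones, made at all times, and inducible ones, whose genes are transcribed when unfolded protein accumulates. In resting cells HSF1 protein is held inactive by chaperones. On stress it forms trimers and binds heat shock elements, which are inverted repeats of a short unit before the start of its target genes. HSPA6 is known as the most strictly inducible HSP70 gene of humans and is missing from the rodent genome. HSPA1A and HSPA1B encode nearly the same inducible HSP70, and HSPA8 the constitutive one.

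The members fell into 3 kinds of profile. HSPA6, HSPA1A, HSPA1B, DNAJB1 and HSP90AA1 were highest in PH, which was so for 5 of 10 members and for 13.5% of all tested names. HSPA8 and HSPD1 were highest in hESCs, as were 12.5% of all tested names, and had their lowest value in PH, as had 30.5%; for HSPA8 the lowest stage became SC-β organoids with either other scaling of the stages. HSPH1, HSPB1 and HSF1 had their highest values in SC-β organoids or DE, a stage that moved with the scaling, whereas the highest stage of the other 7 members did not. With median-ratio scaling 6 of 10 members and 23.1% of all tested names were highest in PH, and with totals recomputed without the 100 most abundant names 8 of 10 and 24.1%. HSPA6, HSPA1A, HSPA1B and DNAJB1 were in PH at least 2-fold above the highest of the other 5 stages, against 2.63% of all tested names.

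**Figure D1:**
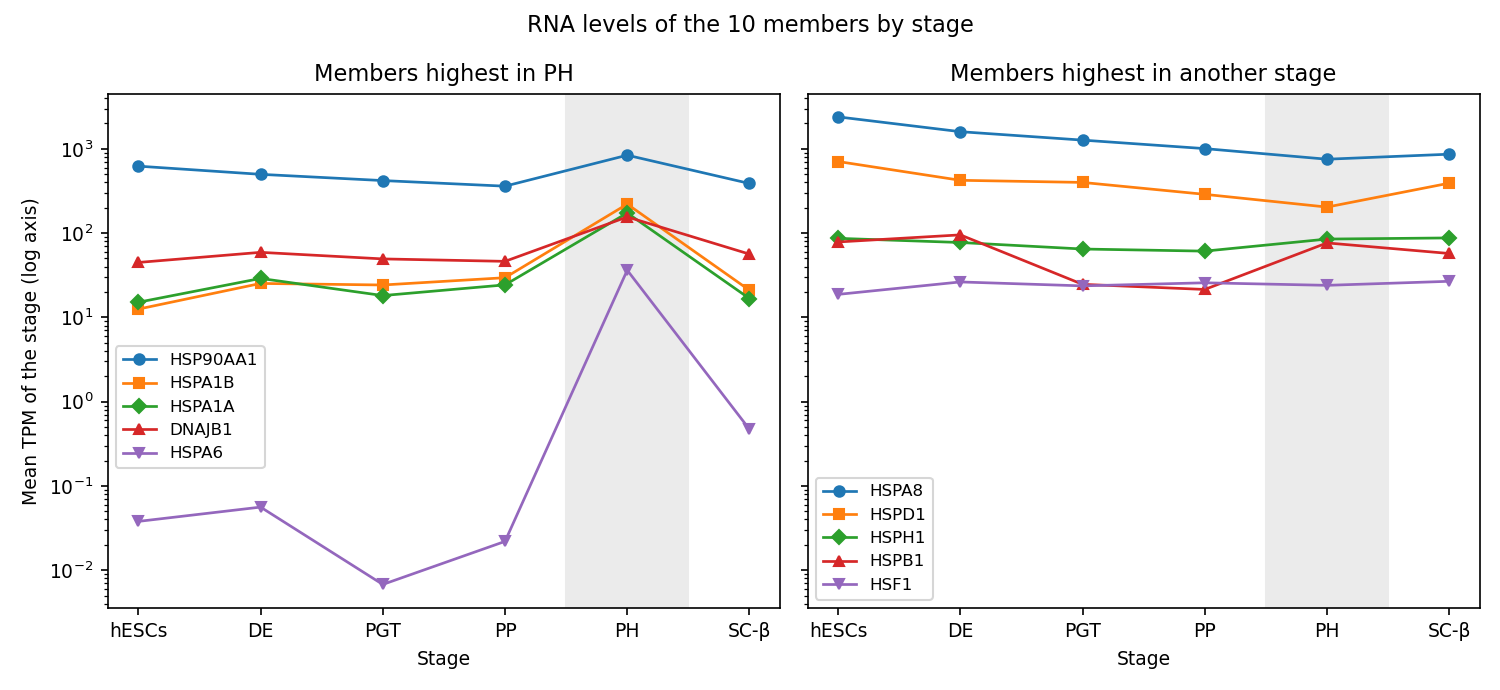
Mean TPM of each of the 10 members on a log axis, by stage; each point is the authors' mean of a stage, with no error bar because the table holds none, and the grey band marks PH. In the left panel HSPA6 lies between 0.00677 and 0.470 TPM outside PH and at 36.3 TPM in PH, while in the right panel HSPA8 has its lowest value, 753.3 TPM, in PH.

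The inducible HSP70 genes come first, since they carried the largest differences. Before the start of HSPA6, HSPA1A, HSPA1B and HSP90AA1 the genome holds the letters below, shown because these genes were highest together in PH. DNAJB1 was highest in PH too, but its window overlaps an exon of another DNAJB1 transcript and is not printed. The letters are the 250 bases before the RefSeq start on the strand of the gene (build GRCh38.p14), at chr1:161524290-161524539 (plus strand) for HSPA6, chr6:31815293-31815542 (plus) for HSPA1A, chr6:31827488-31827737 (plus) for HSPA1B and chr14:102087045-102087294 (minus) for HSP90AA1. Capitals mark each pair of inverted heat shock element units, spelled GAANNTTC or TTCNNGAA, where N is any base. Both spellings read the same on either strand, and neighbouring pairs can overlap.
HSPA6: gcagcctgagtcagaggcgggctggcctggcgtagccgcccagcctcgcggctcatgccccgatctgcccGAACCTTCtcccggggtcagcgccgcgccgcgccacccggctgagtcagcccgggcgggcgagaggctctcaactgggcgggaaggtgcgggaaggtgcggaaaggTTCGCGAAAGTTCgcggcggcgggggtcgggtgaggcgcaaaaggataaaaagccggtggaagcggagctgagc
HSPA1A: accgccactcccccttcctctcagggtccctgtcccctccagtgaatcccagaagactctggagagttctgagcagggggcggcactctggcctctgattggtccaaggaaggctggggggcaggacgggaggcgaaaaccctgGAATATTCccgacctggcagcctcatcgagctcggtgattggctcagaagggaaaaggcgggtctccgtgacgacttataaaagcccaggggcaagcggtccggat
HSPA1B: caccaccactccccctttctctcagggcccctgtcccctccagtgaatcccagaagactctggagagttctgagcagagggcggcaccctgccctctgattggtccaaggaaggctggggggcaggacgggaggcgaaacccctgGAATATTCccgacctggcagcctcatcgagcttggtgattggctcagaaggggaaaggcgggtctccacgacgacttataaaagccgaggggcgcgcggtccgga
HSP90AA1: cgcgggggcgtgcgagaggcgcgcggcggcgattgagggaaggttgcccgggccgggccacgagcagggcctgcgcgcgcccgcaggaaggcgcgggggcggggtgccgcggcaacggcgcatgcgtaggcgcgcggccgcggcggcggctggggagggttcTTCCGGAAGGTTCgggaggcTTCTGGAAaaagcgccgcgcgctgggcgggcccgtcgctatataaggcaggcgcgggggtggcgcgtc

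A pair of units lay in this window in 8 of the 9 members with a window, and in 11.6% of all 35116 RefSeq promoter windows of the same length. A pair was not found in the window of HSPH1, whose RefSeq start lies 484 bases from the start of the GENCODE canonical transcript. HSF1 was not searched. A run of 3 units, which is made of a pair and a further unit at the same spacing, lay in 4 of the 9 windows and in 0.441% of all windows. HSPA6 held 1 such run, at −74 to −62 relative to the start, and a separate pair at −180 to −173. HSP90AA1 held 1 run, at −88 to −76. The windows of HSPA8 and HSPD1, the members with their lowest value in PH, held 2 runs each. Those of HSPD1 overlap, at −245 to −233 and −240 to −228. Those of HSPA8 lie apart, at −230 to −218 and −55 to −43. The TATA box letters TATAAA lay at −30 to −25 in HSPA1A and at −29 to −24 in HSPA1B, which were the 2 members of 9 with that match, against 6.80% of all windows. Other spellings of a TATA box were not searched, so the other members may hold one. These are matches of letters, and binding was not measured at them here. HSPA1A and HSPA1B were alike over 93.6% of their aligned windows, whereas HSPA1A and HSPA6 were alike over 47.7%.

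**Figure D2:**
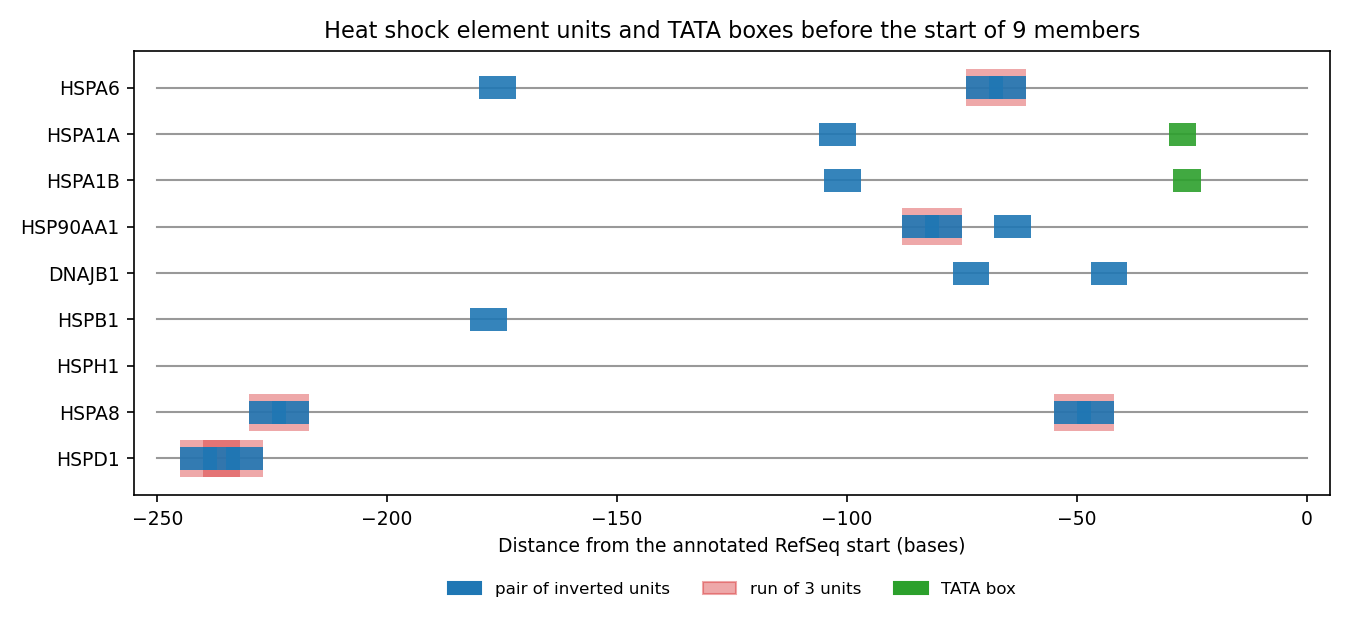
Positions of the pairs of heat shock element units (blue), runs of 3 units (pale red) and exact matches to the TATA box letters TATAAA (green) in the 250 bases before the RefSeq start of 9 members, with the distance from the start in bases on the horizontal axis and drawn to scale. Of the 9 windows, 8 hold a pair, 4 hold a run of 3 units, and the members lowest in PH (HSPA8, HSPD1) are among those with a run.

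HSPA6 (ENSG00000173110.8, chr1:161524540-161526894 on the plus strand of GRCh38, GENCODE version 44) is a gene of 1 exon, as are 5.64% of protein-coding canonical transcripts. Its level was 0.0379 TPM in hESCs, 0.0561 at DE, 0.00677 at PGT, 0.0220 at PP, 36.3 at PH and 0.470 in SC-β organoids. PH stood alone: the next highest stage, SC-β organoids, was below 1 TPM, and the 4 stages from hESCs to PP were below 0.1 TPM. With 1 TPM added to both means, PH exceeded PP by 5.19 on the log2 scale, which was the 21st largest ratio of the 28202 tested names, and it exceeded SC-β organoids by 4.67. The size of the ratio to PP depends on the TPM added: it was 8.22 with 0.1 TPM added, and 6.56 with 1 TPM added to values on totals without the 100 most abundant names. By its margin over the highest other stage HSPA6 was 9th of all tested names. Among the 49085 names it ranked 37809th by level in PP and 2563rd in PH.

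Of the 2306 distinct windows of 50 bases in the HSPA6 transcript, 45.8% also occur in HSPA7, the pseudogene 79396 bases further along chromosome 1. HSPA7 was listed at 0 in hESCs, DE and PGT, at 0.00808 TPM in PP, 1.34 in PH and 0.0342 in SC-β organoids. How reads were divided between HSPA6 and HSPA7 is uncertain, and their PH values are of the same direction. The immune receptor gene FCGR2A, which ends 526 bases before HSPA6 on the same strand, was at 0.0624 TPM in PH and at most 0.393 TPM in any stage. Blood and immune cells are known to carry HSPA6 RNA. Of 8 immune markers CD3E and FCGR3A were at 0 in both PP and PH. In PH PTPRC was at 0.0854 TPM, and LYZ and CD68 alone reached 1 TPM, at 1.39 and 1.00 TPM against 2.57 and 0.856 TPM in PP. The 8 markers together summed to 2.73 TPM in PH against 3.91 in PP and 70.5 in SC-β organoids, where LYZ was at 65.9.

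HSPA1A (ENSG00000204389.10, chr6:31815543-31817946) and HSPA1B (ENSG00000204388.7, chr6:31827738-31830254), both on the plus strand and 9791 bases apart, also have 1 exon each. HSPA1A was at 15.1 TPM in hESCs, 29.0 at DE, 18.2 at PGT, 24.3 at PP, 173.3 at PH and 16.7 in SC-β organoids. HSPA1B was at 12.5 TPM in hESCs, 25.3 at DE, 24.2 at PGT, 29.6 at PP, 220.9 at PH and 21.0 in SC-β organoids. Unlike HSPA6, both were expressed in every stage, and PH stood above the next highest stage by 5.98 times for HSPA1A and 7.47 times for HSPA1B. PH exceeded PP by 2.78 for HSPA1A and by 2.86 for HSPA1B on the log2 scale. In DE both were higher than in hESCs, by 0.89 and 0.96, short of 2-fold.

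The split between the pair is uncertain, because 75.1% of the 50-base windows of HSPA1A occur in HSPA1B and 71.6% of those of HSPA1B occur in HSPA1A. The ratio of HSPA1B to HSPA1A was 0.829 in hESCs and 0.872 in DE, and lay between 1.22 and 1.34 in the other 4 stages. Their sum, which does not depend on the split between them, was 27.7 TPM in hESCs, 54.3 at DE, 42.4 at PGT, 53.9 at PP, 394.2 at PH and 37.7 in SC-β organoids. HSPA1L, a related HSP70 gene that lies 259 bases from HSPA1A and is transcribed the other way, was at 9.25 TPM in PH and between 1.08 and 2.69 TPM elsewhere. LSM2, an RNA-splicing factor gene on the far side of HSPA1L, was lower in PH (25.6 TPM) than in PP (52.8 TPM).

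DNAJB1, the J-domain partner that stimulates the ATPase of HSP70, followed the inducible genes at a smaller size. It was at 44.9 TPM in hESCs, 59.2 at DE, 49.4 at PGT, 46.2 at PP, 155.7 at PH and 56.3 in SC-β organoids. The 5 stages other than PH lay within 1.32 times of each other, and PH exceeded PP by 1.73 on the log2 scale. Its rank by level moved from 2118th in PP to 314th in PH. DNAJB1 and the gene TECR overlap on opposite strands; TECR was at 54.3 TPM in PP and 64.0 in PH.

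HSP90AA1 encodes the inducible cytosolic HSP90, a chaperone of kinases and steroid receptors. It was at 623.4 TPM in hESCs, 498.5 at DE, 420.4 at PGT, 360.7 at PP, 840.9 at PH and 388.1 in SC-β organoids. The level was lower at each step from hESCs to PP and highest in PH, where it was 2.33 times that in PP and 1.35 times that in hESCs. Its constitutive relative HSP90AB1 went the other way between PP and PH, from 939.2 to 423.0 TPM. The ratio of HSP90AA1 to HSP90AB1 lay between 0.343 and 0.533 in 5 stages and was 1.99 in PH. A ratio of 2 genes within a stage does not depend on the total to which the stage was scaled.

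HSPA8 (chr11:123057489-123063230, minus strand), the constitutive HSP70 that also uncoats clathrin vesicles, was the most abundant member in every stage but PH. It was at 2395 TPM in hESCs, 1598 at DE, 1270 at PGT, 1007 at PP, 753.3 at PH and 863.9 in SC-β organoids. By level it ranked 23rd of all names in hESCs, 35th in DE, 48th in PGT, 58th in PP, 45th in PH and 75th in SC-β organoids, so that its rank in PH was above that in PGT, PP and SC-β organoids although its TPM was lower. The log2 ratio of PP to hESCs was −1.25. The log2 ratio of SC-β organoids to PH was 0.20 as deposited and −0.30 with median-ratio scaling, under which each stage is divided by its median ratio to the stages' geometric mean.

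HSPD1, the mitochondrial HSP60, was at 707.5 TPM in hESCs, 423.5 at DE, 399.6 at PGT, 288.6 at PP, 203.7 at PH and 391.6 in SC-β organoids. It was lowest in PH as deposited and with both other scalings. Its partner HSPE1, whose gene is transcribed from the opposite strand and overlaps that of HSPD1, was at 190.4 TPM in hESCs and between 73.7 and 91.7 in the 5 other stages. The ratio of HSPD1 to HSPE1 ranged from 2.37 in PH to 5.31 in SC-β organoids, and 27.1% of the 50-base windows of HSPD1 occur in other genes, 18.4% in the pseudogene HSPD1P1.

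HSPA8, HSPD1, HSP90AA1 and HSPH1 were lower at each step from hESCs through DE and PGT to PP, which was so for 4.45% of all tested names. With median-ratio scaling the 4 members with this order were HSPA8, HSPB1, DNAJB1 and HSP90AA1, against 5.30% of all tested names. With totals recomputed without the 100 most abundant names they were HSPA8 and HSP90AA1, against 3.23%.

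HSPH1, the HSP110 that exchanges the nucleotide of HSP70, was at 86.7 TPM in hESCs, 77.4 at DE, 64.8 at PGT, 61.1 at PP, 85.0 at PH and 87.7 in SC-β organoids. It changed least of the chaperones, with a highest value 1.43 times its lowest. PH exceeded PP by 0.47 on the log2 scale, short of 2-fold.

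HSPB1, the small heat shock protein that forms large oligomers and binds actin filaments, had a profile of its own among the members. It was at 78.5 TPM in hESCs, 95.3 at DE, 24.7 at PGT, 21.5 at PP, 76.5 at PH and 57.3 in SC-β organoids. The values formed a low pair, PGT and PP, and 4 stages at 57.3 TPM or more. The log2 ratio was −1.91 for PGT to DE and 1.79 for PH to PP. For PH to hESCs it was −0.04 as deposited and 0.29 with totals recomputed without the 100 most abundant names. Of its 50-base windows, 13.5% occur in the pseudogene HSPB1P1.

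HSF1, the transcription factor of the heat shock response, was at 18.7 TPM in hESCs, 26.3 at DE, 23.7 at PGT, 25.7 at PP, 24.0 at PH and 26.8 in SC-β organoids. PH lay between PGT and PP, and the 6 stages lay within 1.43 times. The log2 ratio of PH to PP was −0.10 as deposited and 0.12 with median-ratio scaling. RNA levels do not show whether HSF1 protein was active.

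Counted over all 10 members with a threshold of 2-fold after adding 1 TPM, PH against PP gave the widest difference. HSPA6, HSPA1A, HSPA1B, HSPB1, DNAJB1 and HSP90AA1 were at least 2-fold higher, that is 6 of 10 members against 8.94% of all tested names, and 0 of 10 were at least 2-fold lower, against 9.97%. The median log2 ratio of the members was 1.47 and that of all tested names was −0.09. Median-ratio scaling raised every PH to PP ratio by 0.22 on the log2 scale before the pseudocount, and it moved the share of higher names among all names past 2-fold from 47.3% to 60.3%. The 6 members stayed past 2-fold under that scaling (11.7% of all tested names) and with totals recomputed without the 100 most abundant names (15.0%). No member was 2-fold lower under either (7.73% and 11.6% of all tested names).

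SC-β organoids against PH gave the reverse picture for 5 of these genes. HSPA6, HSPA1A, HSPA1B, DNAJB1 and HSP90AA1 were at least 2-fold lower in SC-β organoids (5 of 10 members, 4.19% of all tested names), and 0 of 10 were 2-fold higher (25.5%). The log2 ratios were −4.67, −3.30, −3.34, −1.45 and −1.11 in that order. The median was −0.76 over the members and 0.53 over all tested names. SC-β organoids against PP differed little: HSPB1 alone was 2-fold higher (18.5% of all tested names), 0 of 10 were 2-fold lower (1.63%), and the medians were 0.19 for the members and 0.39 for all tested names. All PH values enter both the comparison with PP and that with SC-β organoids, so the pair of results shares 1 column.

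The comparisons with hESCs likewise share the hESC column. In DE 0 of 10 members were 2-fold higher (22.5% of all tested names) and 0 of 10 were 2-fold lower (4.43%). In PGT 0 of 10 were higher (17.6%) and HSPB1 was lower (7.56%), with a log2 ratio of −1.63. In PP HSPA1B was higher (13.9%), while HSPA8, HSPB1 and HSPD1 were lower (7.07%), with log2 ratios of −1.25, −1.82 and −1.29. In PH HSPA6, HSPA1A, HSPA1B and DNAJB1 were higher (21.0%) and HSPA8 and HSPD1 were lower (14.5%), with log2 ratios of 5.17, 3.43, 4.03 and 1.77 for the former and −1.67 and −1.79 for the latter. In SC-β organoids 0 of 10 were higher (38.6%) and HSPA8 was lower (6.44%), with a log2 ratio of −1.47. The median of the members was 0.15 in DE, −0.23 in PGT, −0.26 in PP, 0.39 in PH and 0.08 in SC-β organoids, beside 0.44, 0.29, 0.24, 0.15 and 0.73 for all tested names. Scaling moved the share of higher names among all names past 2-fold by over 10 percentage points in several of these comparisons. With median-ratio scaling it went from 83.6% to 60.5% in DE, from 70.0% to 53.0% in PGT, from 66.3% to 53.0% in PP and from 85.7% to 69.1% in SC-β organoids, and from 85.9% to 66.0% for SC-β organoids against PH. With totals recomputed without the 100 most abundant names it went from 59.1% to 71.4% in PH.

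The balance within the HSP70 family was read from ratios inside each stage, which no rescaling can move. HSPA8 exceeded HSPA1A and HSPA1B together by 86.6 times in hESCs, 29.4 at DE, 30.0 at PGT, 18.7 at PP, 1.91 at PH and 22.9 in SC-β organoids. HSPA6, HSPA1A and HSPA1B made up 1.14% of the RNA of these 4 HSP70 genes in hESCs, between 3.23% and 5.08% in DE, PGT, PP and SC-β organoids, and 36.4% in PH. HSPA8 exceeded DNAJB1 by 53.4 times in hESCs and by 4.84 times in PH, with the other stages between 15.3 and 27.0 times. The 10 members together summed to 3983 TPM in hESCs, 2833 at DE, 2295 at PGT, 1865 at PP, 2570 at PH and 1910 in SC-β organoids. HSPA8 made up 60.1% of that sum in hESCs, 54.0% in PP and 29.3% in PH.

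**Figure D3:**
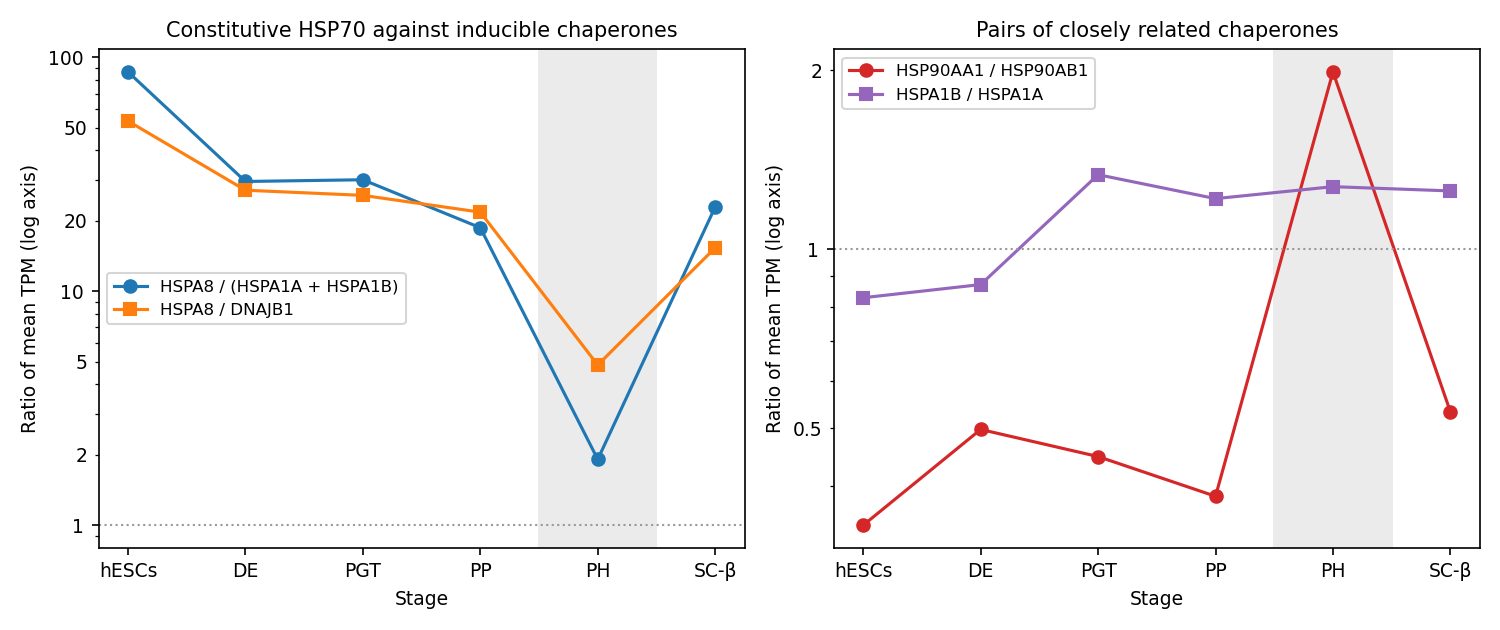
Ratios of mean TPM within each stage on log axes, with the grey band at PH and a dotted line at a ratio of 1; each point is a ratio of the authors' means. HSPA8 over HSPA1A plus HSPA1B drops from 18.7 in PP to 1.91 in PH and is 22.9 in SC-β organoids, HSP90AA1 over HSP90AB1 is above 1 only in PH (1.99) among the 6 stages, and HSPA1B over HSPA1A stays between 0.829 and 1.34.

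The wider chaperone network was mostly short of 2-fold between PP and PH. Of 83 further chaperone, co-chaperone and heat-inducible genes at 1 TPM or more in at least 1 stage, 6 were at least 2-fold higher in PH than in PP and 7 at least 2-fold lower, with a median of −0.32 on the log2 scale. The shares were 7.23% and 8.43%, beside 8.94% and 9.97% of all tested names. Against hESCs, 8 of the 83 were 2-fold higher in PH and 31 were 2-fold lower, which was 9.64% and 37.3% of them beside 21.0% and 14.5% of all tested names. Their median was −0.67, beside 0.15 for all tested names. Counts past 2-fold in these 83 genes and in the lists below are as deposited, and were not recomputed with the other scalings. For PH to PP, the 0.22 shift of median-ratio scaling would take HSP90AB1, DNAJC8 (both −1.15) and HSPB11 (−1.09) short of 2-fold. It would take CHORDC1 (0.97) and MLLT11 (0.86) past 2-fold.

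Among the other 12 genes of the HSP70 and HSP110 families, 4 were 2-fold higher in PH than in PP (HSPA1L, HSPA7, HSPA12A and HSPA12B) and 0 were 2-fold lower. Of all tested names, 8.94% were higher and 9.97% lower. HSPA7 reached 1 TPM in PH alone, so it entered this list and the 83 genes through PH. How reads were divided between HSPA7 and HSPA6 is uncertain. HSPA12A, an atypical member, was at 1.91 TPM in PP and 10.5 in PH. The abundant members were lower in PH: the mitochondrial HSPA9 was at 162.7 TPM in PP and 101.5 in PH, and HSPA5, the HSP70 of the endoplasmic reticulum, at 104.1 and 60.6. Of the other HSP90 genes, HSP90AB1 was 2-fold lower in PH than in PP as deposited, with a log2 ratio of −1.15. HSP90B1 of the endoplasmic reticulum was at 494.9 TPM in PP and 354.8 in PH. All 3 other HSP90 genes were lowest in PH as deposited and with both other scalings.

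The 8 subunits of the cytosolic chaperonin CCT, which folds actin and tubulin, and HSPE1 were all highest in hESCs, 9 of 9, and 8 of the 9 were lowest in PH (5 of 9 with either other scaling). Of all tested names, 12.5% were highest in hESCs and 30.5% lowest in PH as deposited, 20.0% and 23.4% with median-ratio scaling, and 13.1% and 21.1% with totals recomputed without the 100 most abundant names. CCT5 was at 517.6 TPM in hESCs, 294.9 in PP and 108.9 in PH, and CCT3 at 386.0, 219.1 and 111.3. Of 23 other J-domain genes, DNAJB5 alone was 2-fold higher in PH than in PP, from 3.40 to 14.7 TPM, and DNAJC8 alone was 2-fold lower, with a log2 ratio of −1.15. DNAJA1, the most abundant of them, was at 208.0 TPM in PP and 131.4 in PH. Among 20 co-chaperones none was 2-fold higher, and BAG2 and FKBP5 were 2-fold lower. STIP1, which links HSP70 to HSP90, was at 155.4 TPM in PP and 94.8 in PH. Of 5 other small heat shock proteins at 1 TPM or more, HSPB8 and HSPB11 were 2-fold lower and none was higher.

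Among 4 other heat shock factors and HSF1 regulators, HSF4 was 2-fold higher, with 0.494 TPM in PP and 3.74 in PH. HSF4, HSPA12B, HSPB8, BAG2 and FKBP5 were named after their values were seen. HSF2 was at 19.1 TPM in PP and 21.9 in PH. Of 13 listed genes that are known to respond to heat, 6 also belong to the lists above. As deposited, 0 of the 13 were 2-fold higher and 0 were 2-fold lower in PH than in PP, with a median of −0.23. The polyubiquitin gene UBB was at 259.8 TPM in PP and 220.6 in PH. CHORDC1, an HSP90 co-chaperone, came closest at 0.97 on the log2 scale, from 27.7 to 55.4 TPM. MLLT11 followed at 0.86, from 29.4 to 54.3 TPM. The 0.22 shift of median-ratio scaling would take both past 2-fold. BAG3, an HSP70 cofactor, was at 7.86 TPM in PP and 6.11 in PH. CHORDC1, MLLT11 and BAG3 were also named after their values were seen.

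**Figure D4:**
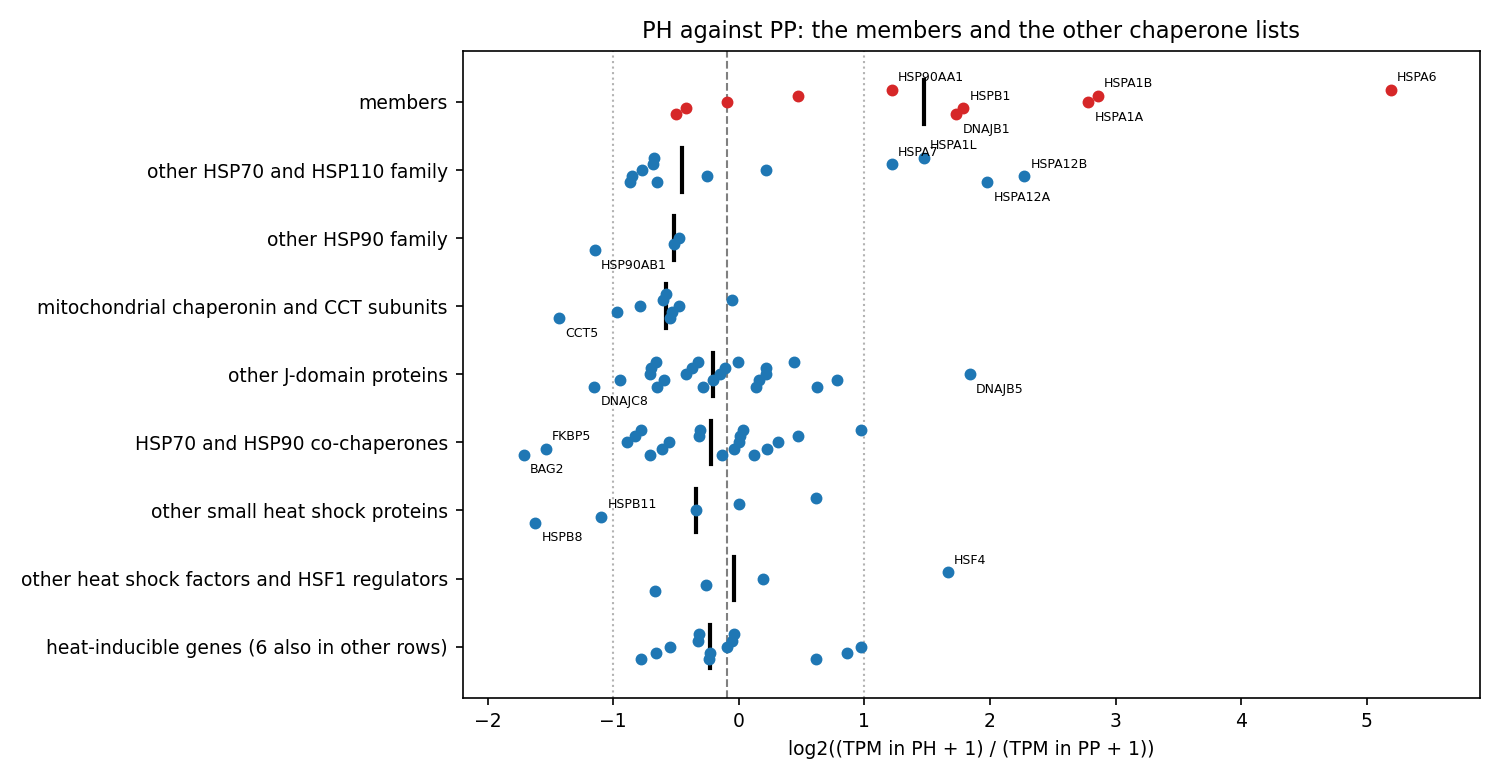
Log2 ratio of PH to PP, with 1 TPM added to both means, for the 10 members (red) and the other chaperone lists (blue), each point a gene at 1 TPM or more in at least 1 stage; black bars are list medians, the dashed line is the median of all tested names (−0.09) and dotted lines mark 2-fold. The members' median is 1.47, whereas the medians of the other lists lie between −0.58 and −0.04, and genes past 2-fold are named. Of the heat-inducible genes, 6 are drawn in another list too.

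The profiles of HSPA6 and HSPA1A were set beside those of 15428 protein-coding names at 1 TPM or more in a stage, by the distance between log2(TPM + 1) profiles centred on their own mean over the 6 stages. The 5 genes nearest to HSPA6 were ACTL6B, MYT1L, UNCX, ELAVL3 and LHX5, at distances of 0.419 to 0.585 and with Pearson's r of 0.995 to 0.999 over the 6 stages. ELAVL3, a neuronal RNA-binding protein, was at 30.4 TPM in PH and at most 0.976 elsewhere. A total of 150 coding names had an r of 0.95 or more with HSPA6, the 6 points being 1 high stage and 5 low ones. HSPA1B was nearest to HSPA1A, at a distance of 0.647 and an r of 0.980, and the next were POU4F2, SCRT2, SLC32A1 and GBX1, at distances of 0.722 to 0.782. With a pseudocount of 0.1 TPM, 3 of the 5 genes nearest to HSPA6 were again among its nearest 5.

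Other gene lists also differed between PP and PH, but not all of them had the stage profile of these chaperones. HSPA6, HSPA1A and HSPA1B summed to 430.5 TPM in PH and 38.2 in SC-β organoids. All 6 listed neural markers (FABP7, HES5, SOX1, PAX6, NES and DCX) were at least 2-fold higher in PH than in PP. Their summed level was 466.0 TPM in PH against 32.1 to 157.4 in the other stages. DCX was at 169.4 TPM in PH and 12.0 in PP, and HES5 at 109.8 and 0.0882. NES was at 135.8 TPM in PH, 50.9 in PP and 121.4 in hESCs. Of 7 mesenchymal markers 6 were 2-fold higher and ACTA2 was 2-fold lower (15.2 TPM in PP, 3.57 in PH). The 7 summed to 470.4 TPM in PH, 15.7 to 52.5 in the stages from hESCs to PP and 1084 in SC-β organoids. Of 10 immediate early genes, which respond within minutes to stress and handling, 7 were 2-fold higher in PH than in PP. In SC-β organoids 8 were 2-fold higher than in PP. The 10 summed to 152.5 TPM in hESCs, 61.2 in PP, 207.9 in PH and 215.9 in SC-β organoids. FOS was at 6.54 TPM in PP, 60.3 in PH and 54.9 in SC-β organoids. Of all tested names, 8.94% were 2-fold higher and 9.97% 2-fold lower in PH than in PP. For SC-β organoids to PP, 18.5% were 2-fold higher. The part of cell composition or handling in the PH values of the heat shock genes was not tested.

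The stage labels were set against defining markers. POU5F1 was at 1449 TPM in hESCs, SOX17 at 96.1 TPM in DE and HNF4A at 33.7 TPM in PGT, each the highest of the 6 stages. PDX1 was highest in PP (3.17 TPM), and INS (298.1 TPM) and GCG (2793 TPM) were highest in SC-β organoids. NKX6-1, which the paper stained for beside PDX1 in PP cells, was not highest in PP but in SC-β organoids (5.37 TPM). FOXA2 was highest in PGT (48.7 TPM), above DE (39.6 TPM). In PH, SOX17 was at 0, PDX1 at 0.0173 TPM, NKX6-1 at 0.256 TPM and FOXA2 at 1.17 TPM. INS was at 6.86 TPM in PH and 6.93 in PP, and GCG at 27.2 and 16.5. SOX2 was at 108.7 TPM in PH, beside 132.8 in hESCs and 68.2 in PP. The number of names at 1 TPM or more ranged from 16784 in hESCs to 24571 in SC-β organoids. Structural RNAs such as RN7SK and RN7SL1 took 50.9% of the TPM total in PH and 31.8% to 42.2% in the other stages. Since TPM values share a fixed total, the level of every other gene depends on that share, and the within-stage ratios above do not.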

How the data were processed

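RNA-seq libraries of 6 stages, 2 samples each, were averaged by the authors before deposit. Total RNA was extracted with Trizol. The study's methods name ribosomal RNA removal with RiboMinus, whereas the labels name an mRNA library kit, and which applied was not settled. The authors used HISAT2 (version 2.2.0) for alignment to hg38, and the deposited TPM values came from StringTie (version 2.1.6); the gene annotation is not given in the sources used here. The deposited table gives 1 mean TPM per stage under 49085 names (50451 entries; entries of the 231 repeated names were summed). It holds no counts, so the depth is unknown from the table, no interval or floor can be given, and no test was run. Other assays of the series were not analysed here.

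Ratios of stages were taken on the log2 scale after adding 1 TPM to both means, and 2-fold or more was counted among the 28202 names at 1 TPM or more in at least 1 stage. Alternatives were a pseudocount of 0.1 TPM, median-ratio scaling over 13938 names, totals without the 100 most abundant names, the highest entry of a repeated name, a 4-fold threshold, the preceding stage as reference and, for the share of all names, no filter on low values. PP stood in as the preceding stage of PH, whose place in the series is not given. The members and lists were chosen with earlier results of these data known. Named genes were all members, their neighbours in the annotation, the 5 genes nearest to HSPA6 and to HSPA1A, and of each list at most 2 genes each way past 2-fold at 10 TPM or more and the 2 most abundant; others are marked where named, and single genes of the cell type marker lists were picked after their values were seen. Positions came from GENCODE version 44 on GRCh38 and promoter sequences from RefSeq (GRCh38.p14), with 9 of 10 members matched. The calculations were tested on simulated data. Python 3.11.15 was used with numpy 2.4.6, pandas 2.3.3, Biopython 1.88 and matplotlib 3.10.9.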

Additional observations from a re-analysis of the deposited data

How the results depend on the processing

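Each value is the authors' mean of 2 samples, so neither replicate error nor depth can be weighed, and differences at levels below 1 TPM, as for HSPA6 outside PH, are not interpretable as folds. No paired analysis was possible because each deposited column is an average, and leaving out a replicate was not run for the same reason. No alternative reversed a member past 2-fold. Of 320 log2 ratios recomputed, 309 kept their side of 2-fold, 10 crossed to beyond it and 1 crossed back. Of the 309, 80 used the highest entry of a repeated name and could not change, because each member has 1 entry.

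The share of all names was not computed at a 4-fold threshold or with a pseudocount of 0.1 TPM, so those counts have no background. With a 4-fold threshold the members counted as higher were 3 in place of 6 for PH to PP and 3 in place of 4 for PH to hESCs. They were 0 in place of 1 for PP to hESCs and for SC-β organoids to PP. Those counted as lower were 3 in place of 5 for SC-β organoids to PH, and 0 for PGT, PP, PH and SC-β organoids to hESCs, in place of 1, 3, 2 and 1. With a pseudocount of 0.1 TPM, higher counts were 1 in place of 0 for DE and for SC-β organoids to hESCs, and 2 in place of 1 for SC-β organoids to PP, where HSPA6 joined at 2.23 on the log2 scale. With median-ratio scaling, lower counts against hESCs were 2 in place of 0 for DE and 3 in place of 1 for PGT. They were 4 in place of 3 for PP and 3 in place of 1 for SC-β organoids. The higher count for PP to hESCs was 0 in place of 1 (HSPA1B at 0.94). With the preceding stage as reference, PP had 0 higher and 0 lower. PP was taken as the reference for SC-β organoids and for PH, whose place in the series is not given. The counts therefore repeat the comparisons with PP above. They were 1 higher and 0 lower for SC-β organoids, and 6 higher in place of 4 and 0 lower for PH. Totals without the 100 most abundant names raised the members' sum by construction, to 8575 TPM in hESCs, 5410 at DE, 4885 at PGT, 4363 at PP, 6934 at PH and 3745 in SC-β organoids, and moved no count of members past 2-fold. Without the filter on low values, the share of all names past 2-fold dropped in all 16 cases, since names with no expression enter the total. Other causes were not tested. Ratios short of 2-fold changed sign 25 times with either scaling, HSF1 and DNAJB1 among them.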
